A study of Homo sapiens with 12 samples.

Results

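Glucose uptake, glycolysis and the response to low oxygen were examined through 42 genes, namely glucose and lactate transporters, glycolytic enzymes, the hypoxia-inducible factor (HIF) subunits with their oxygen sensors, and HIF target genes. The 42 genes were taken by symbol from the 23064 gene symbols of the RNAseq count tables, and all 42 were found in the tables of both cell lines. For each symbol the transcript row with the most counts was used.

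Glycolysis splits glucose into pyruvate, and cells turn part of that pyruvate into lactate, which monocarboxylate transporters carry out of the cell. HIF is a transcription factor made of an oxygen-sensitive alpha subunit, such as HIF1A or EPAS1 (HIF-2α), and a stable beta subunit. When oxygen is present, prolyl hydroxylases of the EGLN family mark the alpha subunits and the VHL protein directs their degradation, and when oxygen is low HIF raises the transcription of glucose transporters, glycolytic enzymes and genes for blood vessel growth and acid balance. Bladder tumors, like many solid tumors, are known to use much glucose and to hold poorly oxygenated regions.

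RNA was sequenced from CAL-29 and 5637 cells, which are established lines from human bladder carcinoma. Cells were transfected with siCtrl, a control siRNA, or with an siRNA against KMT9α, a methyltransferase encoded by N6AMT1, and were harvested after 3 days. Each siRNA gave 3 libraries in each line, 12 in all, with between 24479348.5 and 35151256.5 counts per library. The culture medium, the transfection reagent and the siRNA concentration differed between the lines and cannot be told apart from the line. Only 1 siRNA against KMT9α was sequenced. Nothing in the labels says whether replicates came from separate cultures, so the p-values measure only the spread between these libraries.

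Expression is given as CPM, the counts of a gene relative to the total of its library on a common scale, after TMM scaling, which allows for differences in library composition, and a log2 fold change compares siKMT9α with siCtrl within 1 line. The lines were scaled separately, so a level set across lines is approximate. The test was edgeR's quasi-likelihood test across all genes, a gene was called at an unadjusted p below 1e-06, and adjusted p-values are Benjamini-Hochberg values over all genes tested. The targeted gene was measured first. N6AMT1 stood at 11.4, 10.2 and 9.68 CPM in the siCtrl libraries of CAL-29 cells and at 2.82, 2.93 and 1.99 CPM in the siKMT9α libraries. In 5637 cells N6AMT1 stood at 13.4, 13.2 and 13.3 CPM with siCtrl and at 3.75, 2.22 and 2.56 CPM with siKMT9α, so knockdown and control did not overlap in either line. All 8 epithelial and urothelial markers examined were expressed in both lines, and their summed level was 13220 to 13887 CPM with siCtrl and 6299 to 6450 CPM with siKMT9α in the CAL-29 line. In 5637 cells the same sum was 5314 to 5563 CPM with siCtrl and 4357 to 4400 CPM with siKMT9α. Of the 8 markers, 7 were called as falling in CAL-29 cells, where GATA3 was not called, and 6 in 5637 cells, where TP63 rose. Of all genes tested, 15.0% and 17.6% fell. Each sample was 1 cell line in bulk, so fewer cells with these markers and less of their RNA per cell cannot be told apart. Whether this shift of the markers has a part in the results was not tested. The 5 leukocyte markers summed to at most 15.1 CPM and the 4 endothelial markers to at most 13.7 CPM in any library.

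The glycolysis and hypoxia genes moved in both directions in both lines. The CAL-29 line had 12 rising and 9 falling genes among the 42, 20 genes were not called, and CA9 had too few counts to be tested. Over all 14673 genes tested in that line 15.0% rose and 15.0% fell, 30.0% in either direction. The 5637 line had 10 rising and 10 falling genes, 21 were not called, and SLC2A3 had too few counts to be tested, against 18.0% of all 14335 genes rising and 17.6% falling, 35.6% in either direction. The 41 tested had a median log2 fold change of 0.12 (CAL-29) and 0.03 (5637), beside -0.02 and -0.01 over all genes tested. Without regard to sign, the median log2 fold change was 0.41 and 0.34, near the 0.38 and 0.32 of all genes tested. The 42 genes together took 0.837% to 0.884% of all counts in the siCtrl libraries of CAL-29 cells and 1.13% to 1.17% in the siKMT9α libraries, and in 5637 cells 1.16% to 1.19% and 1.23% to 1.27%. Without siKMT9α replicate 3, 5 genes in place of 9 were called as falling in CAL-29 cells. Leaving out that library also took the calls over all genes from 4402 to 3119. Without siKMT9α replicate 1 or 2 these calls were 3553 or 3367. Without siCtrl replicate 2 or 3 they were 3253 or 4319, and without siCtrl replicate 1 they rose to 5469.

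At an adjusted p below 0.05 in edgeR's test, 18 of the genes rose and 12 fell in CAL-29, where 34.3% and 35.2% of all genes did so. In 5637 cells 18 rose and 15 fell at that threshold, where 35.1% and 35.6% of all genes did so. The siCtrl and siKMT9α libraries did not overlap for 32 of the 41 genes in CAL-29, where 72.3% of all genes tested behaved in that way, and for 34 of 41 in 5637 cells, where the share of all genes was 72.4%. Of the 40 genes tested in both lines, 26 had the same sign in both, which is 65.0% of them, while 70.7% of all 13674 genes tested in both lines did. Called in both lines were 13 of the 40 genes, which is 32.5%, beside 18.7% of all genes tested in both. Rising in both lines were 5 of these 13 (HK2, DDIT4, SLC2A1, GAPDH and LDHA), falling in both were another 5 (SLC16A1, ENO2, BNIP3L, VHL and P4HA2), and PFKL, EPAS1 and NDRG1 moved in opposite directions, which is 23.1% of the 13 beside 9.39% of all 2556 genes called in both lines. Neither line gave a call for 14 of the 42 genes.

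**Figure D1:**
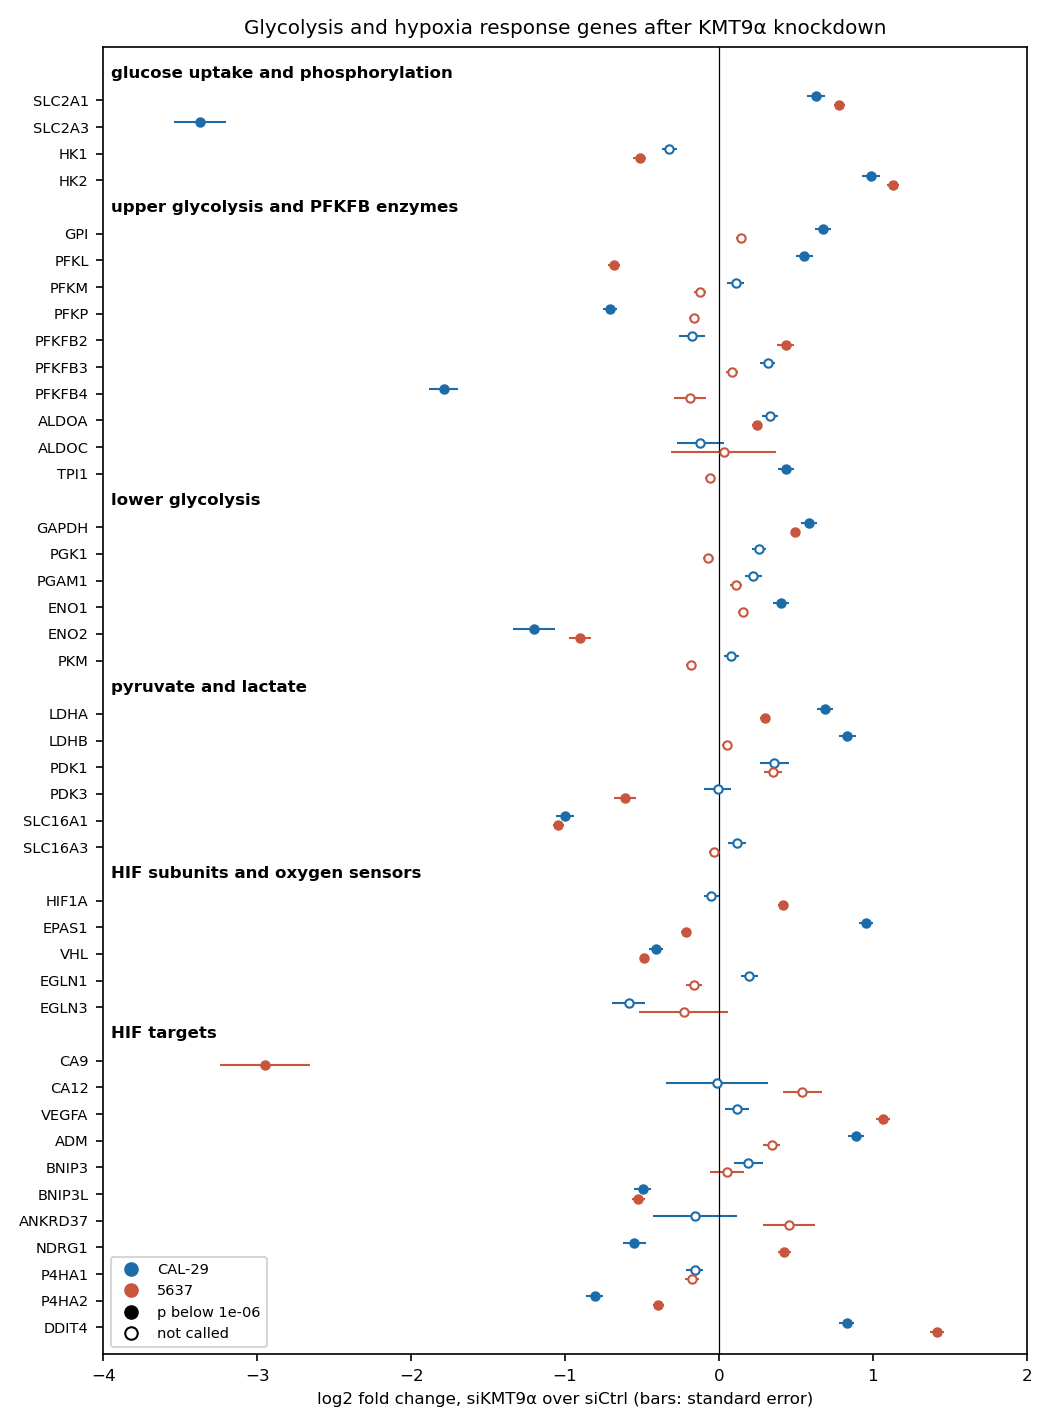
Log2 fold change of siKMT9α over siCtrl (horizontal axis) for each of the 42 genes, ordered by role, in CAL-29 (blue) and 5637 cells (red), with bars for the standard error. Filled points passed p below 1e-06, SLC2A3 is not drawn for 5637 cells and CA9 not for CAL-29 cells, and calls on both sides of 0 occur in each role.

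HIF binds DNA at a short word whose core is ACGTG, so the promoter windows of the genes were searched for ACGTG on both strands (read as ACGTG or CACGT). The windows were RefSeq's, on GRCh38.p14, and ran from 250 bases before to 50 bases after each annotated start. A window was found for 35 of the 42 genes, and 21 of the 35 held the word in at least 1 window, which is 60.0%, while 24.9% of all 27305 symbols with a window did. These shares are not like for like. The 42 genes were chosen partly as HIF targets, the 27305 symbols were not limited to genes tested here, and the number of windows per symbol was not matched. In 8 of the 21 the word was part of CACGTG, a word that other factors such as MYC are also known to bind. No window was at hand for SLC2A3, PFKFB2, SLC16A1, VHL, VEGFA, BNIP3L and NDRG1. The 29-base stretches around the word are shown for 4 genes that rose in both lines, for ENO2, which fell in both, for CA9, which fell in 5637 cells, and for EGLN1, which was called in neither, because they place the same word beside opposite responses. They are written 5′ to 3′ on the strand of the gene, and the capitals mark ACGTG or its reverse complement CACGT.
HK2, chr2:74834067-74834095, plus strand, 48 bases before the start: aatgggcgtgcgCACGTcactgatccgga
GAPDH, chr12:6535171-6535199, plus strand, 81 bases before the start: gctctgcggggtCACGTgtcgcagaggag
LDHA, chr11:18394464-18394492, plus strand, 87 bases before the start: cagcccgactcaCACGTgggttcccgcac
DDIT4, chr10:72273787-72273815, plus strand, 125 bases before the start: agaacgttgcttACGTGcgcccggagtcc
ENO2, chr12:6914450-6914478, plus strand, 118 bases before the start: acccgcgctcgtACGTGcgcctccgccgg
CA9, chr9:35673898-35673926, plus strand, 18 bases before the start: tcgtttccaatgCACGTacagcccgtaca
EGLN1, chr1:231422284-231422312, minus strand, 13 bases before the start: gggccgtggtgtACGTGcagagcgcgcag
The word stood in the windows of 6 of the 12 genes that rose in CAL-29 cells, of 2 of the 4 that fell and have a window, and of 12 of the 18 that were not called. In 5637 cells it stood in the windows of 5 of 7 rising, 3 of 7 falling and 13 of 21 uncalled genes. SLC2A1, which rose in both lines, and P4HA2, which fell in both, had a window without the word. A match says only that these letters are present, and no binding was measured here.

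Glucose enters the cell through GLUT transporters and is trapped by hexokinases, and in both lines 1 transporter and 1 hexokinase rose. SLC2A1, which encodes the widespread transporter GLUT1, stood at 162, 146 and 133 CPM with siCtrl and 231, 224 and 226 CPM with siKMT9α in the CAL-29 line. The 5637 line gave 210, 218 and 216 CPM with siCtrl and 352, 375 and 379 CPM with siKMT9α. Every siKMT9α library thus lay above every siCtrl library of its line, with log2 fold changes of 0.63 ± 0.06 (SE, edgeR adjusted p = 4.35e-09) and 0.78 ± 0.03 (edgeR adjusted p = 3.31e-18). HK2, on chr2:75061254-75120486 of GRCh37, encodes the inducible hexokinase of many tumors and had the largest rise common to both lines, read as the smaller of the 2 changes. Its levels were 55.1, 56.0 and 51.8 CPM with siCtrl against 115, 109 and 98.2 CPM with siKMT9α in the CAL-29 line. In 5637 cells they were 51.7, 54.8 and 53.9 CPM against 120, 115 and 117 CPM. HK2 therefore started at nearly the same level in the lines and about doubled in both, by 1.98-fold (log2 0.99 ± 0.06, edgeR adjusted p = 4.69e-12) and 2.19-fold (log2 1.13 ± 0.04, edgeR adjusted p = 1.77e-20).

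The other 2 of these 4 genes fell where they were called. HK1, the hexokinase of most resting tissues, fell by 0.51 ± 0.04 on the log2 scale in 5637 cells (edgeR adjusted p = 5.18e-12), and its log2 fold change in CAL-29 cells of -0.32 ± 0.05 passed the adjusted threshold (edgeR adjusted p = 8.07e-06) but not 1e-06. SLC2A3, which encodes the high-affinity transporter GLUT3, stood at 12.2, 12.4 and 12.9 CPM with siCtrl and at 1.59, 1.19 and 0.756 CPM with siKMT9α in the CAL-29 line. The 2 groups lay far apart, and the log2 fold change of -3.37 ± 0.17 was the lowest of the genes tested here in that line (edgeR adjusted p = 2.75e-13). In 5637 cells SLC2A3 had 3, 3 and 1 counts with siCtrl and 1, 3 and 3 counts with siKMT9α, so no fold is given there.

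In the upper part of glycolysis, where glucose 6-phosphate is rearranged, phosphorylated again and split, 5 of 10 genes were called in CAL-29 cells, where 30.0% of all genes were, and 3 of 10 in 5637 cells, where 35.6% were. GPI, the isomerase of the first rearrangement, rose in CAL-29 cells (log2 0.68 ± 0.05, edgeR adjusted p = 4.98e-10), and its log2 fold change was 0.14 ± 0.03 in 5637 cells, short of 1e-06. Phosphofructokinase, which commits the sugar to glycolysis, has 3 genes, and their calls differed. PFKL, the liver-type subunit on chr21:45719934-45747259 of GRCh37, stood at 56.9, 58.5 and 58.7 CPM with siCtrl and 79.3, 85.5 and 91.4 CPM with siKMT9α in the CAL-29 line. In the 5637 line the levels were 197, 187 and 202 CPM with siCtrl and 125, 124 and 116 CPM with siKMT9α. PFKL thus rose in 1 line by 0.56 ± 0.06 (edgeR adjusted p = 1.59e-08) and fell in the other by 0.68 ± 0.04 on the log2 scale (edgeR adjusted p = 1.06e-15), without overlap of the groups in either. PFKP, the platelet-type subunit, fell in CAL-29 cells (log2 -0.71 ± 0.05, edgeR adjusted p = 1.44e-11), with a log2 fold change of -0.16 ± 0.03 in 5637 cells. PFKM, the muscle-type subunit, was called in neither line, with 0.11 ± 0.05 and -0.12 ± 0.04.

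The PFKFB enzymes make and break fructose 2,6-bisphosphate, which activates phosphofructokinase. PFKFB4 stood at 103, 80.2 and 85.4 CPM with siCtrl and at 30.6, 24.5 and 22.4 CPM with siKMT9α in the CAL-29 line, a log2 fold change of -1.79 ± 0.09 (edgeR adjusted p = 6.50e-13). In 5637 cells it was low in all libraries, at 8.13, 7.0 and 8.19 CPM with siCtrl and 7.38, 6.72 and 6.47 CPM with siKMT9α, and the groups overlapped (log2 -0.19 ± 0.10). PFKFB2 rose in 5637 cells (log2 0.43 ± 0.06, edgeR adjusted p = 8.25e-08) and was at -0.18 ± 0.09 in CAL-29 cells. PFKFB3 was called in neither line, at 0.32 ± 0.05 and 0.08 ± 0.04. Its CAL-29 value had a p of 1.62e-06 and so narrowly missed the call in edgeR's test.

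The aldolases and triose phosphate isomerase end this part of the pathway. ALDOA, the main aldolase, rose in 5637 cells (log2 0.25 ± 0.03, edgeR adjusted p = 9.72e-08), and its larger log2 fold change in CAL-29 cells of 0.33 ± 0.05 had a p of 1.77e-06 and so missed the call in edgeR's test. TPI1 rose in CAL-29 cells (log2 0.44 ± 0.05, edgeR adjusted p = 3.75e-07) and was at -0.06 ± 0.03 in 5637 cells. ALDOC, the brain-type aldolase, was called in neither line, at -0.12 ± 0.15 and 0.03 ± 0.34, with less than 1 CPM in 5637 cells. Of the exon bases of ALDOA in GENCODE, 54.2% also belong to an exon of another annotated gene, so its counts could include reads of that gene.

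In the lower part, which yields ATP and pyruvate, GAPDH rose in both lines and ENO2 fell in both. GAPDH, which oxidizes glyceraldehyde 3-phosphate, stood at 1493, 1652 and 1675 CPM with siCtrl and 2423, 2443 and 2373 CPM with siKMT9α in the CAL-29 line. In 5637 cells its levels were 2299, 2350 and 2385 CPM with siCtrl and 3212, 3405 and 3298 CPM with siKMT9α. The change was 1.5-fold (log2 0.59 ± 0.05, edgeR adjusted p = 4.54e-09) in CAL-29 and 1.41-fold (log2 0.50 ± 0.03, edgeR adjusted p = 6.85e-15) in 5637 cells, and no siKMT9α library reached down to a siCtrl library of its line. GAPDH is often used as a reference gene for qRT-PCR. The GENCODE annotation names 65 pseudogenes after GAPDH, and how reads shared with them were counted is not given in the sources used here.

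ENO2, the neuron-type enolase on chr12:7022909-7032861, was the counterpart that fell. It stood at 10.5, 12.4 and 9.6 CPM with siCtrl and 5.58, 4.09 and 4.45 CPM with siKMT9α in the CAL-29 line. In 5637, siCtrl libraries held 26.6, 23.6 and 28.8 CPM, as against siKMT9α libraries with 14.2, 13.8 and 14.3 CPM. The groups were apart in both lines, with log2 fold changes of -1.20 ± 0.14 (edgeR adjusted p = 1.10e-07) and -0.90 ± 0.07 (edgeR adjusted p = 4.53e-12). Without siCtrl replicate 2 or siKMT9α replicate 3, the CAL-29 value was -1.09 or -1.16 and its p of 1.30e-06 or 1.63e-06 in edgeR's test narrowly missed 1e-06. ENO1, the ubiquitous enolase, rose in CAL-29 cells (log2 0.40 ± 0.05, edgeR adjusted p = 3.07e-07) and was at 0.16 ± 0.03 in 5637 cells. PGK1 and PGAM1, the kinase and mutase between GAPDH and enolase, and PKM, the last enzyme, were called in neither line, with log2 fold changes from 0.08 to 0.26 in CAL-29 cells and from -0.18 to 0.11 in 5637 cells. The PKM value in 5637 cells, -0.18 ± 0.03, narrowly missed the call in edgeR's test, with a p of 1.32e-06. With every transcript row in the fit its p was 4.31e-07, which passes.

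Lactate dehydrogenase turns pyruvate into lactate, and its A subunit rose in both lines. LDHA stood at 181, 190 and 184 CPM with siCtrl and 317, 303 and 276 CPM with siKMT9α in the CAL-29 line. Levels in 5637 cells were 512, 520 and 538 CPM with siCtrl and 636, 654 and 644 CPM with siKMT9α. The rise was 0.69 ± 0.05 (edgeR adjusted p = 2.35e-10) and 0.30 ± 0.03 (edgeR adjusted p = 6.82e-10) on the log2 scale, without overlap. LDHB, the subunit known for favoring the reverse reaction, stood at 255, 286 and 299 CPM with siCtrl and 490, 513 and 495 CPM with siKMT9α in the CAL-29 line. The 5637 line gave 556, 581 and 591 CPM with siCtrl and 596, 598 and 597 CPM with siKMT9α. It was called only in CAL-29 cells (log2 0.83 ± 0.05, edgeR adjusted p = 2.27e-11), and in 5637 cells the log2 fold change was 0.05 ± 0.03.

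SLC16A1, which encodes the monocarboxylate transporter MCT1, fell to about the same extent in both lines. On chr1:113454469-113500215 of GRCh37, it stood at 110, 95.2 and 94.3 CPM with siCtrl and 48.8, 51.5 and 49.2 CPM with siKMT9α in the CAL-29 line. In the 5637 line the levels were 215, 222 and 220 CPM with siCtrl and 109, 103 and 106 CPM with siKMT9α. The siKMT9α libraries were thus 2.0-fold (log2 -1.0 ± 0.06, edgeR adjusted p = 3.94e-12) and 2.06-fold lower (log2 -1.04 ± 0.03, edgeR adjusted p = 6.03e-21), and the log2 changes differed by -0.06 ± 0.07 between the lines. SLC16A3, which encodes the lactate exporter MCT4 of glycolytic cells, was called in neither line, at 0.12 ± 0.06 and -0.03 ± 0.03. The pyruvate dehydrogenase kinases keep pyruvate out of the mitochondrial oxidation. PDK1 had similar log2 fold changes of 0.36 ± 0.10 and 0.35 ± 0.06 without a call, and its p of 1.12e-06 in 5637 cells narrowly missed 1e-06 in edgeR's test. PDK3 fell in 5637 cells (log2 -0.61 ± 0.07, edgeR adjusted p = 2.16e-08), with -0.01 ± 0.09 in CAL-29 cells.

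**Figure D2:**
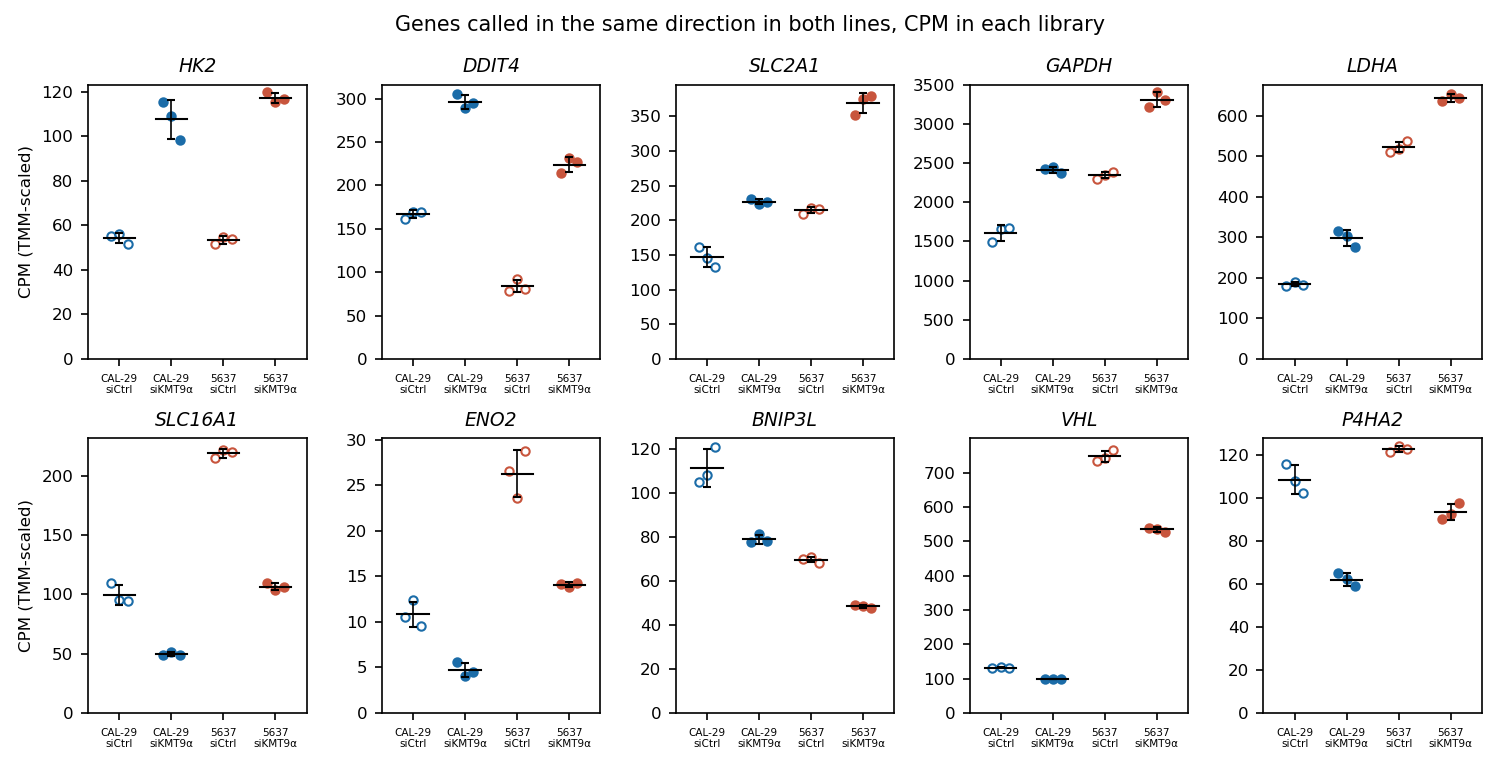
CPM after TMM scaling (vertical axes, from 0) in each library for the 5 genes that rose in both lines (upper row) and the 5 that fell in both (lower row), with open points for siCtrl, filled points for siKMT9α, horizontal lines for the mean and bars for the SD (n = 3). In all 10 panels the siCtrl and siKMT9α points of a line do not overlap.

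The ratio of the counts of 2 genes in 1 library does not depend on how libraries are scaled, so it was formed for 6 pairs that share a reaction or role. The pairs were chosen after the values were seen and were not tested, and because counts were not divided by length only the change of a ratio can be read, not its size. The HK2 to HK1 ratio was 0.495, 0.487 and 0.431 with siCtrl and 1.31, 1.13 and 1.06 with siKMT9α in the CAL-29 line. In 5637 cells it was 0.550, 0.561 and 0.574 with siCtrl and 1.71, 1.74 and 1.83 with siKMT9α, so the counts of this pair shifted toward HK2 in both lines. The SLC16A3 to SLC16A1 ratio shifted toward SLC16A3 in both, from 1.05 ± 0.02 (SD, n = 3) to 2.27 ± 0.12 in CAL-29 and from 1.32 ± 0.04 to 2.66 ± 0.12 in 5637 cells. The ENO2 to ENO1 ratio fell in both, from 0.0129 ± 0.0015 to 0.0042 ± 0.0007 and from 0.0155 ± 0.0015 to 0.0074 ± 0.0003.

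In 2 other pairs the lines moved in opposite directions. The PFKL to PFKP ratio was 0.251 ± 0.007 with siCtrl and 0.604 ± 0.033 with siKMT9α in the CAL-29 line, and 0.831 ± 0.029 and 0.580 ± 0.024 in 5637 cells. The EPAS1 to HIF1A ratio was 0.344 ± 0.006 with siCtrl and 0.690 ± 0.022 with siKMT9α in the CAL-29 line, and 0.822 ± 0.011 and 0.532 ± 0.012 in 5637 cells. For both pairs the lines differed more with siCtrl than with siKMT9α. The LDHA to LDHB ratio overlapped between the groups in CAL-29 cells, at 0.662 ± 0.046 and 0.598 ± 0.045, and was higher with siKMT9α in every library of 5637 cells, at 0.909 ± 0.013 and 1.08 ± 0.01.

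**Figure D3:**
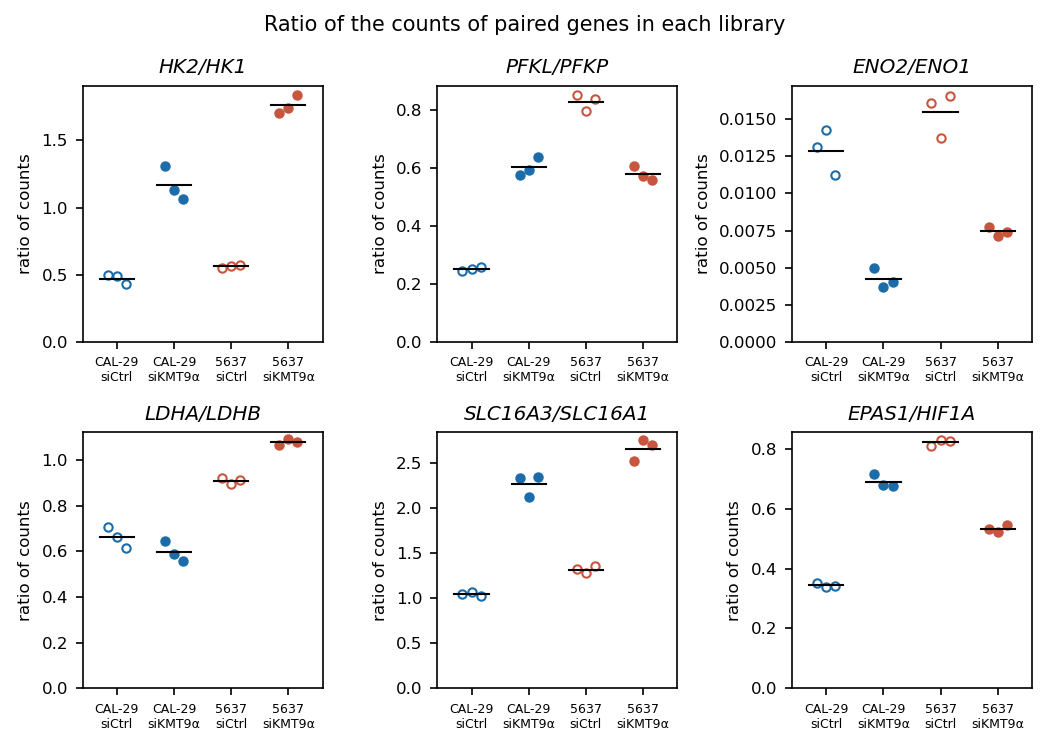
Ratio of the counts of 6 gene pairs in each library (vertical axes, no unit, from 0), with open points for siCtrl, filled points for siKMT9α, CAL-29 in blue, 5637 in red and horizontal lines for the mean (n = 3). HK2/HK1 and SLC16A3/SLC16A1 are higher with siKMT9α in both lines, and PFKL/PFKP and EPAS1/HIF1A are higher in CAL-29 and lower in 5637 cells.

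Of the HIF alpha subunits, HIF1A was called in 5637 cells alone and EPAS1 was called in both lines, in opposite directions. HIF1A stood at 644, 661 and 673 CPM with siCtrl and 631, 647 and 637 CPM with siKMT9α in the CAL-29 line, where the groups overlapped (log2 -0.05 ± 0.05, edgeR adjusted p = 0.367). In 5637, siCtrl libraries held 333, 325 and 322 CPM, as against siKMT9α libraries with 439, 436 and 431 CPM, a rise of 0.41 ± 0.03 on the log2 scale (edgeR adjusted p = 6.98e-13). EPAS1, on chr2:46520806-46613836 of GRCh37, stood at 226, 224 and 230 CPM with siCtrl and 451, 440 and 430 CPM with siKMT9α in the CAL-29 line. Levels in 5637 cells were 269, 270 and 267 CPM with siCtrl and 233, 228 and 235 CPM with siKMT9α. It thus rose in CAL-29 cells (log2 0.96 ± 0.05, edgeR adjusted p = 1.35e-13) and fell slightly in 5637 cells (log2 -0.21 ± 0.03, edgeR adjusted p = 7.64e-07). The fall in 5637 cells kept its direction but missed 1e-06 when any library of that line other than siKMT9α replicate 1 was left out, with log2 fold changes from -0.22 to -0.20, and in the joint fit of all libraries. These are RNA levels, and HIF alpha subunits are known to be controlled largely through protein stability, which was not measured here.

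Of the oxygen-sensing genes, VHL, which encodes the subunit of the ubiquitin ligase that binds hydroxylated HIF, fell in both lines. It stood at 131, 133 and 130 CPM with siCtrl and 97.8, 99.6 and 98.9 CPM with siKMT9α in the CAL-29 line (log2 -0.41 ± 0.04, edgeR adjusted p = 6.74e-08). The 5637 line gave 734, 743 and 766 CPM with siCtrl and 540, 536 and 527 CPM with siKMT9α (log2 -0.48 ± 0.03, edgeR adjusted p = 1.68e-14). The groups did not overlap in either line, and the siKMT9α libraries of 5637 cells lay far above every library of CAL-29 cells. Without siKMT9α replicate 3 the CAL-29 value was -0.41 with a p of 1.20e-06 in edgeR's test. Of the exon bases of VHL, 23.5% also belong to an exon of another annotated gene. The prolyl hydroxylase genes EGLN1 and EGLN3 were called in neither line, at 0.20 ± 0.05 and -0.59 ± 0.11 in CAL-29 and -0.16 ± 0.05 and -0.23 ± 0.29 in 5637 cells.

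Of the 11 genes grouped as HIF targets, apart from the transporters and glycolytic enzymes, DDIT4 was the only 1 called up in both lines. ADM also rose in both lines at an adjusted p below 0.05 in edgeR's test, but passed 1e-06 only in CAL-29 cells. DDIT4, on chr10:74033678-74035794 of GRCh37, encodes REDD1, an inhibitor of mTORC1 that is induced by several stresses besides low oxygen. It stood at 161, 169 and 170 CPM with siCtrl and 305, 289 and 295 CPM with siKMT9α in the CAL-29 line. In the 5637 line the levels were 78.8, 92.2 and 80.8 CPM with siCtrl and 214, 231 and 227 CPM with siKMT9α. The rise of 1.78-fold (log2 0.83 ± 0.05, edgeR adjusted p = 1.83e-12) in CAL-29 and 2.67-fold (log2 1.42 ± 0.04, edgeR adjusted p = 1.76e-21) in 5637 cells was far larger than the spread between replicates. In 5637 cells it was the largest rise among the 42 genes.

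The target genes BNIP3L and P4HA2 fell in both lines. BNIP3L encodes a receptor for the removal of mitochondria by autophagy and stood at 105, 108 and 121 CPM with siCtrl and 77.6, 81.4 and 78.2 CPM with siKMT9α in the CAL-29 line. In 5637, siCtrl libraries held 69.9, 70.9 and 68.4 CPM, as against siKMT9α libraries with 49.2, 48.7 and 47.7 CPM. The log2 fold changes were close, at -0.50 ± 0.05 (edgeR adjusted p = 6.94e-08) and -0.52 ± 0.04 (edgeR adjusted p = 5.48e-12), and without siKMT9α replicate 3 the CAL-29 value was -0.48 with a p of 1.71e-06 in edgeR's test. P4HA2 encodes a collagen prolyl hydroxylase and stood at 116, 108 and 102 CPM with siCtrl and 65.0, 62.1 and 58.9 CPM with siKMT9α in the CAL-29 line. Levels in 5637 cells were 121, 124 and 123 CPM with siCtrl and 90.2, 92.5 and 97.7 CPM with siKMT9α. Its fall was -0.81 ± 0.05 (edgeR adjusted p = 4.14e-11) and -0.39 ± 0.04 (edgeR adjusted p = 1.80e-10) on the log2 scale, whereas its paralog P4HA1 was called in neither line, at -0.16 ± 0.06 and -0.17 ± 0.05.

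The remaining targets were called in 1 line, in opposite directions or not at all. VEGFA, which encodes the main growth factor of blood vessels, stood at 199, 166 and 150 CPM with siCtrl and 207, 181 and 170 CPM with siKMT9α in the CAL-29 line, where the groups overlapped (log2 0.12 ± 0.08). The 5637 line gave 43.8, 47.2 and 41.1 CPM with siCtrl and 93.1, 90.5 and 92.3 CPM with siKMT9α, a rise of 2.09-fold (log2 1.06 ± 0.05, edgeR adjusted p = 2.63e-18). The siKMT9α libraries of 5637 cells still lay below every CAL-29 library. NDRG1, a stress-responsive gene that HIF is known to induce, stood at 30.8, 35.1 and 36.1 CPM with siCtrl and 24.4, 21.8 and 23.5 CPM with siKMT9α in the CAL-29 line. In the 5637 line the levels were 51.7, 54.0 and 53.9 CPM with siCtrl and 68.3, 73.1 and 72.8 CPM with siKMT9α. It fell by 0.55 ± 0.07 in CAL-29 cells (edgeR adjusted p = 1.26e-06) and rose by 0.42 ± 0.04 in 5637 cells (edgeR adjusted p = 6.67e-10) on the log2 scale. The fall in CAL-29 cells missed 1e-06 when any library other than siCtrl replicate 1 was left out, with log2 fold changes from -0.59 to -0.49, and under scaling by total counts.

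CA9 encodes the membrane-bound carbonic anhydrase IX, a gene that is known to be almost silent in many cells with ample oxygen. In 5637 cells it was low and fell, from 2.67, 1.93 and 2.08 CPM with siCtrl to 0.375, 0.185 and 0.295 CPM with siKMT9α (log2 -2.95 ± 0.29, edgeR adjusted p = 4.53e-10). As counts these were 87, 60 and 74 with siCtrl and 10, 5 and 9 with siKMT9α, so the size of the fall rests on few counts. CA9 had enough counts to be tested there only through its siCtrl libraries. In CAL-29 cells it had 0 counts in every library after rounding, which allows up to 3 counts or 0.123 CPM in the shallowest library of the line, counting error only. Of the exon bases of CA9, 35.7% also belong to an exon of another annotated gene. ADM, which encodes the vessel-dilating peptide adrenomedullin, rose in CAL-29 cells (log2 0.89 ± 0.05, edgeR adjusted p = 3.61e-12), and its log2 fold change was 0.34 ± 0.06 in 5637 cells (edgeR adjusted p = 3.77e-06), short of 1e-06. CA12, BNIP3 and ANKRD37 were called in neither line, with log2 fold changes from -0.16 to 0.19 in CAL-29 and from 0.06 to 0.54 in 5637 cells.

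The difference between the lines was tested directly with an interaction term over all 12 libraries, using edgeR's glmTreat against a 1.5-fold difference. It passed an adjusted p of 0.05 for 7 of the 42 genes, which is 16.7%, against 10.7% of all 15395 genes in that fit. The 7 include SLC2A3, which entered the fit through its CAL-29 counts and had too few in 5637 cells to be tested there. EPAS1 (5637 minus CAL-29 log2 difference -1.19 ± 0.05 SE, adjusted p = 3.38e-11) and PFKL (-1.25 ± 0.07, adjusted p = 7.23e-10) responded in opposite directions. PFKFB4 (1.59 ± 0.16, adjusted p = 1.47e-06) fell in CAL-29 cells, where its mean control level was 89.7 CPM against 7.77 CPM in 5637 cells. NDRG1 (0.96 ± 0.08, adjusted p = 1.81e-04), VEGFA (0.93 ± 0.10, adjusted p = 0.00335) and LDHB (-0.80 ± 0.07, adjusted p = 0.00395) followed in edgeR's glmTreat. For SLC2A3 the difference of 3.58 ± 0.93 (adjusted p = 0.0116) set a fall in CAL-29 cells against 1 to 3 counts per library in 5637 cells, so it says little of a response there, and without siKMT9α replicate 2 or 3 of 5637 cells its adjusted p was 0.0918 or 0.0822 in edgeR's glmTreat. HIF1A, with a call in 5637 cells alone, had a difference of 0.45 ± 0.05 that did not exceed 1.5-fold (edgeR adjusted p = 1.0).

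**Figure D4:**
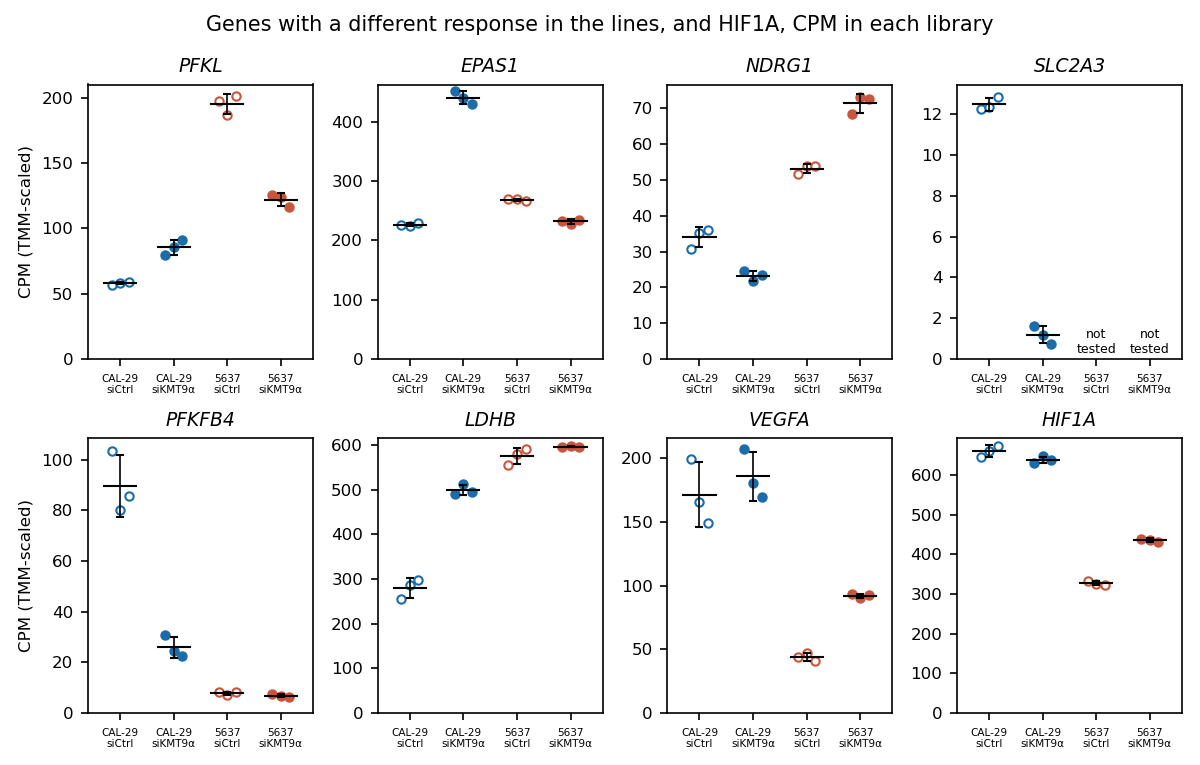
CPM after TMM scaling (vertical axes, from 0) in each library for the 7 genes that passed the test of a difference between the lines and for HIF1A, with open points for siCtrl, filled points for siKMT9α, CAL-29 in blue, 5637 in red, horizontal lines for the mean and bars for the SD (n = 3). PFKL and EPAS1 rise in CAL-29 and fall in 5637 cells, NDRG1 does the reverse, and SLC2A3 was not tested in 5637 cells.

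Other genes of these pathways, listed with earlier results of these data known, were called in both directions too. Of 38 further glycolysis and pyruvate genes, 29 were tested in CAL-29, with 5 rising and 3 falling, and 30 in 5637, with 3 rising and 9 falling. The share called, 27.6% and 40.0%, was near the 30.0% and 35.6% of all genes. Their median log2 fold change was 0.06 and -0.18. SLC2A10, which encodes the transporter GLUT10, fell in both lines, from 70.4 ± 0.7 to 21.2 ± 0.9 CPM (SD, n = 3) in CAL-29 cells (log2 -1.73 ± 0.06, edgeR adjusted p = 4.30e-16) and from 12.3 ± 0.2 to 1.87 ± 0.30 CPM in 5637 cells (log2 -2.73 ± 0.12, edgeR adjusted p = 6.34e-18). MPC1, a subunit of the mitochondrial pyruvate carrier, rose from 11.9 ± 1.2 to 21.2 ± 0.8 CPM in CAL-29 cells (log2 0.84 ± 0.09, edgeR adjusted p = 3.97e-08) and from 11.2 ± 0.8 to 17.9 ± 1.3 CPM in 5637 cells (log2 0.67 ± 0.08, edgeR adjusted p = 1.25e-08).

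Of 20 further components of the HIF pathway, 16 were tested in each line, with 4 rising and 2 falling in CAL-29 and 3 rising and 3 falling in 5637, and with median log2 fold changes of 0.13 and 0.09. The share called was 37.5% in each line, near the 30.0% and 35.6% of all genes. CITED2, which competes with HIF for its coactivators, fell in both lines (log2 -0.64 ± 0.06, edgeR adjusted p = 1.03e-08, and -1.01 ± 0.05, edgeR adjusted p = 9.42e-17). CREBBP, which encodes one of those coactivators, rose in both (log2 0.37 ± 0.05, edgeR adjusted p = 2.20e-06, and 0.39 ± 0.04, edgeR adjusted p = 3.34e-10). The CAL-29 call of CREBBP was lost without siCtrl replicate 2 or any 1 of the siKMT9α replicates, at log2 fold changes from 0.32 to 0.39, and under upper quartile scaling.

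Of 39 further HIF targets, 34 were tested in each line, with 5 rising and 8 falling in CAL-29 and 10 rising and 9 falling in 5637, and with median log2 fold changes of -0.06 and 0.04. The share called was 38.2% and 55.9%, beside 30.0% and 35.6% of all genes. LOXL2, which encodes a lysyl oxidase of the extracellular matrix, fell from 134 ± 10 to 61.1 ± 4.2 CPM in CAL-29 cells (log2 -1.13 ± 0.06, edgeR adjusted p = 6.05e-13) and from 144 ± 3 to 78.4 ± 1.9 CPM in 5637 cells (log2 -0.88 ± 0.04, edgeR adjusted p = 1.29e-18). HMOX1, which encodes the heme-degrading enzyme heme oxygenase 1 and is induced by oxidative stress as well, rose from 25.3 ± 1.2 to 105 ± 9 CPM in CAL-29 cells (log2 2.05 ± 0.07, edgeR adjusted p = 2.26e-16) and from 11.3 ± 0.3 to 18.4 ± 2.4 CPM in 5637 cells (log2 0.71 ± 0.08, edgeR adjusted p = 1.11e-08).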

How the data were processed

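The line, the siRNA and the replicate of all 12 libraries came from the labels, using the numbers of the titles. The labels do not name the siRNA. The study's results describe it as siKMT9α#1. The authors mapped reads with STAR to hg19, used Homer for counting RefSeq transcripts and deposited estimated counts without normalization, in steps of 0.5, for 37400 transcripts per line. Each table also has 3 columns of the authors' own comparison (p, adjusted p and log2 fold change), which were not used.

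Each symbol was represented by its most counted transcript, with counts rounded to integers. The filter on low counts was filterByExpr, libraries were scaled with TMM, and each line was fitted with the siRNA as the only term in edgeR 4.0.16 under R 4.3.3. The difference between the lines was fitted over all 12 libraries. The fits were tested on simulated data. Alternatives included DESeq2 1.42.0, and tables and plots were made in Python 3.11.15. The threshold for a call was taken from the methods of the study. The SE of a log2 fold change was obtained from its size and the F statistic. No 2 libraries were duplicates, since chi-square divided by its degrees of freedom was at least 2.25 for each replicate pair, and the spread between replicates limits the precision more than the depth does. For siCtrl of CAL-29 cells this value was 8.18 and 12.3 for the pairs with replicate 1 and 3.32 for the pair without it, so replicate 1 stood apart.

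The genes and lists were chosen with earlier results of these data known. Values in every library are given for genes called in both lines (first 5 in each direction by the smaller change), for genes called in opposite directions, for genes whose response differed between the lines, and for HIF1A and EPAS1. Of each further list the 2 genes with the largest smaller change among those called in both lines are named. Gene positions and exon overlaps come from GENCODE on GRCh37, the assembly that hg19 denotes.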

Additional observations from a re-analysis of the deposited data

Results flagged for a closer look

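The response to siKMT9α differed between the lines by a test of the difference itself (5637 minus CAL-29, edgeR's glmTreat, adjusted p below 0.05) for 9 of the genes named. Passing this test was itself a reason to name a gene, so the count does not show how common such differences are. Of all 15395 genes in that fit, 10.7% passed. Medium, dose and reagent cannot be told apart from the line for any of the 9. The log2 difference was -1.25 for PFKL, -1.19 for EPAS1 and 0.96 for NDRG1, whose calls within the lines had opposite signs. It was 1.59 for PFKFB4 and -0.80 for LDHB, which were called in CAL-29 cells alone, and 0.93 for VEGFA, which was called in 5637 cells alone. For SLC2A3 it was 3.58, with 1 to 3 counts per library in 5637 cells, so it says little of a response in that line. SLC2A10 fell in both lines with a difference of -1.01, and HMOX1 rose in both with a difference of -1.35.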

How the results depend on the processing

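The counts of genes that rose or fell stayed within 1.5 times the reported count with DESeq2, with the likelihood ratio test, and with upper quartile, RLE or total counts scaling. They did so too with the joint model, without a filter, and with a minimum of 10 counts per library. The same held with every transcript row in the fit, but there the most counted row was still the one read. That alternative therefore does not compare the rows of a gene. In that fit, a less counted row of PFKFB2 (log2 0.31 ± 0.09) and of PDK3 (log2 -0.55 ± 0.12) missed 1e-06 in 5637 cells. Asking for a 2-fold change besides p below 1e-06 left 0 rising and 3 falling genes in CAL-29 cells and 3 rising and 2 falling in 5637 cells. At an adjusted p below 0.05 the rising genes in 5637 cells numbered 18 in place of 10. Leaving out 1 library gave 10 to 15 rising and 5 to 10 falling genes in CAL-29 cells, the 5 without siKMT9α replicate 3, and 10 to 12 rising and 9 to 10 falling genes in 5637 cells. The genes that differed between the lines numbered 25 with no fold threshold, 3 against a 2-fold difference, and 6 to 7 with 1 library left out. With a replicate block, 15 genes rose and 11 fell in CAL-29 cells, 12 rose and 11 fell in 5637 cells, and 7 differed between the lines. Over all genes the block gave 6327 calls in place of 4402 in CAL-29 cells and 5378 in place of 5104 in 5637 cells. Same-numbered libraries did not deviate together throughout (correlations of 0.20, 0.05 and 0.06 in CAL-29 and 0.21, 0.01 and -0.02 in 5637 cells), so the numbers were not taken as pairs. Different-numbered libraries gave -0.18 to 0.14 and -0.13 to 0.14, so the replicate 1 pair was the highest in each line. Whether the replicates share an effect was not tested further. No called value of a named gene changed its direction under these alternatives. Over named genes and alternatives, 28 calls were lost with the direction kept, and the cause was not tested. Scaling by total counts moved the median log2 fold change of all genes to 0.06 in CAL-29 and -0.06 in 5637 cells. The depth limits SLC2A3 in 5637 and CA9 in CAL-29 cells, which could not be compared.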

Other observations

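Some of the 42 genes share sequence or position with others, which the counting may not separate. GENCODE names 44 pseudogenes after BNIP3 and 13 after PGAM1, and 55.8% of the exon bases of EGLN1, 40.3% of those of ANKRD37 and 33.4% of those of LDHB also belong to an exon of another annotated gene. The most counted gene of the CAL-29 siCtrl libraries was FN1, which encodes fibronectin, with 2.27% to 2.58% of all counts, and in the other 9 libraries it was EEF1A1.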
